A study of Mus musculus with 9 samples.

Results

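Microglia, the resident macrophages of the brain, and the macrophages of its borders are recognised by a set of identity genes, and 35 such genes were followed in cerebella of mice carrying SmoA1, an activated form of the Hedgehog signal transducer Smoothened. The genes were chosen by name and a value was at hand for 34 of them, among the 30654 values per array (19087 of these for named genes). Csf1r, the receptor for both microglial growth factors, was not analysed here. All 9 samples were SmoA1 cerebella taken at postnatal day 20, from 5 Pycard wild-type and 4 Pycard knockout samples. Pycard encodes ASC, the adaptor that joins inflammasome sensors to caspase-1. Every sample was labelled in Cy5 and hybridised against one Cy3 reference, a pool of wildtype cerebella at postnatal day 16, so each value is a log2 ratio of a sample over that pool. The sources used here do not give the promoter that drives SmoA1, the make of the Pycard allele or whether each array is a separate animal. The p-values therefore rest on the spread among arrays, part or all of which may be technical.

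Microglia depend on signalling through the CSF1 receptor, whose ligands are Csf1 and Il34. Their identity is set by transcription factors such as PU.1 (gene Spi1), Irf8 and, in the brain, Sall1. In the healthy brain they carry purinergic receptors and other surface proteins with which they survey the tissue, and they share Fc receptors, CD45 and lysosomal genes with macrophages elsewhere. Macrophages of the meninges and perivascular space are set apart by genes such as Mrc1 and Cd163. In whole tissue, fewer cells of a type and less RNA per cell cannot be told apart. A ratio also does not show how strongly a gene is expressed, so levels of different genes cannot be compared and the presence of defining cerebellar markers could not be checked.

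Pycard, the targeted gene, lay between 0.72 and 1.32 on the wild-type arrays and between -2.83 and -1.48 on the knockout arrays. The groups did not overlap. The spread over all features differed between arrays, with an SD from 0.552 on knockout 1 to 1.12 on wild-type 4, and array medians lay between 0 and 0.013. Titles of wild-type 4 and 5 and of knockout 4 end in a number and the other 6 in a letter, and what this style stands for is not stated.

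In wild-type SmoA1 cerebellum, nearly every call among these genes was toward a higher level than in the day 16 pool. Of the 34 genes, 16 passed as higher and 3 as lower (limma, adjusted p under 0.05 over all 30654 values), where 12.9% and 12.1% of all values did so and 25.0% passed in either direction. The median wild-type log2 ratio was 0.40 over the 34 genes and 0.0078 over all values. Lyz2, Fcrls, Aif1, Gpr34, Irf8, Ms4a7, Fcer1g, Cd53 and Cd48 were at 1 or above on the log2 scale, and the genes that passed as lower were Cd163, Il34 and Tmem119. The pool differs from the samples in age, in the absence of SmoA1 and in dye, and these cannot be told apart. The comparison also leaves out the spread of the pool, which is 1 RNA. Called higher were 10 of the genes without wild-type 2 and 10 without wild-type 5, called lower was 1 without wild-type 3, and 11 of the 19 calls held with any 1 array left out. The shares of all values in these fits were not computed.

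**Figure D1:**
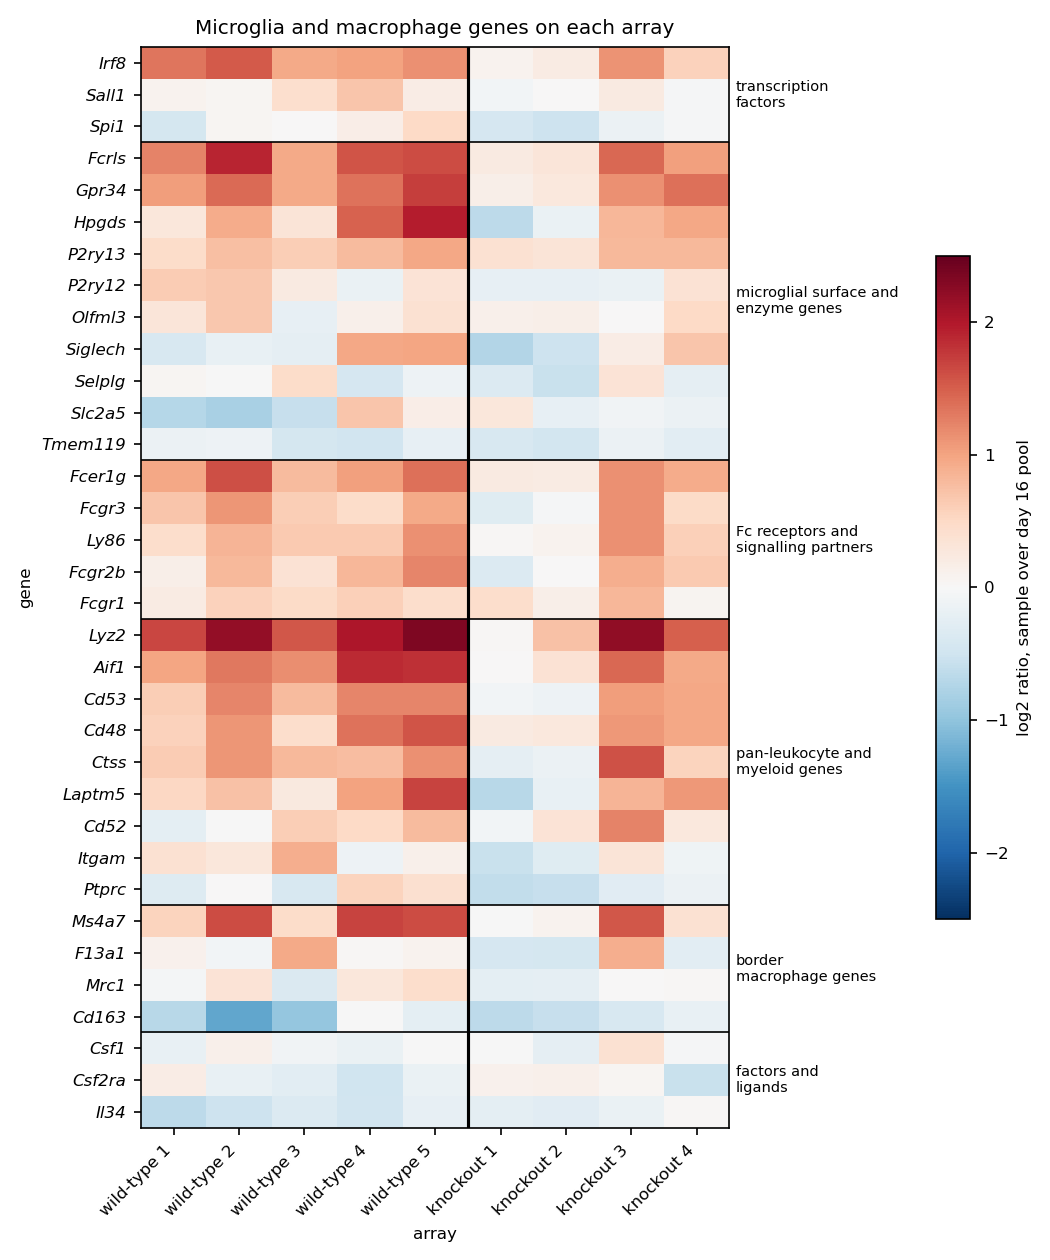
Log2 ratio over the day 16 pool for each of the 34 genes (rows, grouped by role) on each array (columns, wild-type left of the line, knockout right of it). Lyz2, Aif1, Fcrls, Gpr34 and Irf8 are red on the 5 wild-type arrays and paler on knockout 1 and 2, and Cd163 and Tmem119 are below 0 on all 9 arrays.

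Of the 3 transcription factors, 1 (Irf8) passed as higher in wild-type and 0 as lower, beside 12.9% and 12.1% of all values. Irf8, which acts with PU.1 in the myeloid lineage, stood at 1.34, 1.54, 0.95, 1.002 and 1.14 on wild-type 1 to 5 and at 0.089, 0.20, 1.12 and 0.57 on knockout 1 to 4. All 5 wild-type values were near 1 or above, knockout 3 lay within their range and the other 3 knockout arrays below it. The wild-type mean was 1.19 ± 0.24 (SD, n = 5) (adjusted p = 0.00102 by limma) and the knockout mean 0.49 ± 0.46 (SD, n = 4). Its 2 features moved the same way, with wild-type means of 1.52 and 0.86. Spi1, which encodes PU.1 itself, stood at -0.44, 0.051, 0.0040, 0.17 and 0.50 on wild-type 1 to 5 and at -0.42, -0.52, -0.14 and -0.024 on knockout 1 to 4, on both sides of 0 in wild-type. Its means were 0.055 ± 0.34 (SD, n = 5) and -0.28 ± 0.23 (SD, n = 4), and neither passed. Sall1, a zinc finger factor of microglial identity that other brain cells also transcribe, stood at 0.093, 0.056, 0.42, 0.69 and 0.18 on wild-type 1 to 5 and at -0.067, 0.012, 0.22 and -0.029 on knockout 1 to 4. All wild-type Sall1 values were above 0, though the mean of 0.29 ± 0.27 (SD, n = 5) did not pass (adjusted p = 0.0701 by limma), and the knockout values surrounded 0.

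PU.1 binds DNA at GA-rich sites, and the letters GAGGAA were looked up on both strands of RefSeq promoter windows (GRCm38.p6, 250 bases before to 50 after each gene start). Windows were at hand for 28 of the 35 genes. At least 1 match was present for 16 of the 28 genes (57.1%) and for 31.3% of all 27025 genes with a window. A match is a description of the sequence, not a site of binding. These windows are printed because Aif1 and Fcrls were among the highest genes over the pool and Itgam neighbours Pycard. P2ry13 was the one gene to pass in both genotypes with features averaged, and Lyz2 had the highest ratio and holds no match. Capitals mark GAGGAA or its reverse complement TTCCTC. The Fcrls match begins 144 bases before the gene start, that of P2ry13 48 bases before and that of Aif1 7 bases before, and Itgam has 3 matches, the first of them 84 bases before.
Aif1, chr17:35176003-35176302, minus strand: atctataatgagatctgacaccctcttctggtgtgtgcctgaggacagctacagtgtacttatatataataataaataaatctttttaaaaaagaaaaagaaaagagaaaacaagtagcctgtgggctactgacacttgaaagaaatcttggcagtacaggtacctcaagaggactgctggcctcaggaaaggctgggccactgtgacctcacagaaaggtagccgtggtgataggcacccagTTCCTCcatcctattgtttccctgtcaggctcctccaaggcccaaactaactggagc
Fcrls, chr3:87263475-87263774, minus strand: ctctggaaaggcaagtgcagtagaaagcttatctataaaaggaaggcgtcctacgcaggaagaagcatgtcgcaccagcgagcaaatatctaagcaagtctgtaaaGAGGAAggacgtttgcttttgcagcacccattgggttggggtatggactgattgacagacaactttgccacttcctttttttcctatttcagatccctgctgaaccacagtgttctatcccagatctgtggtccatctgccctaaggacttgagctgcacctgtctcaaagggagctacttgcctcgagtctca
P2ry13, chr3:59210833-59211132, minus strand: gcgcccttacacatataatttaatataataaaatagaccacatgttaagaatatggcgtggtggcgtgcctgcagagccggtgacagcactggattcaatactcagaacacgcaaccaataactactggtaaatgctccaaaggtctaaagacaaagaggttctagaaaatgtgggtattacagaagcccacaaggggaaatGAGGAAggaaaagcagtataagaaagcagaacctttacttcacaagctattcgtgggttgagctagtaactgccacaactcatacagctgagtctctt
Itgam, chr7:128062390-128062689, plus strand: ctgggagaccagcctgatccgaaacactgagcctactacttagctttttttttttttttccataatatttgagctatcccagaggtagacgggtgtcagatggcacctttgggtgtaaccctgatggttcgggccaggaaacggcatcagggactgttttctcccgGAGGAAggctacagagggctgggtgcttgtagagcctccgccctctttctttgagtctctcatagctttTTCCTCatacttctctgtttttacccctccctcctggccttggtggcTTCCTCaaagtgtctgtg
Lyz2, chr10:117282223-117282522, minus strand: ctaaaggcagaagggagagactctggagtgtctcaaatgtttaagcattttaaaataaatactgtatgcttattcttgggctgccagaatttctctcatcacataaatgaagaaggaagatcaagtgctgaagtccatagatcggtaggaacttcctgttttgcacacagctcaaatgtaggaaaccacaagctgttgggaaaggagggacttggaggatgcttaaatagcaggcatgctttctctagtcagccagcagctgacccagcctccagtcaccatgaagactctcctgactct

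Of the 10 microglial surface and enzyme genes, 4 passed as higher in wild-type and 1 as lower, beside 12.9% and 12.1% of all values. Fcrls, an Fc receptor-like gene enriched in mouse microglia, stood at 1.25, 1.91, 0.94, 1.57 and 1.64 on wild-type 1 to 5 and at 0.22, 0.31, 1.43 and 1.03 on knockout 1 to 4. The wild-type arrays and knockout 3 and 4 were near 1 or above it and knockout 1 and 2 were not. Gpr34, a receptor for lysophosphatidylserine, stood at 1.04, 1.42, 0.95, 1.36 and 1.74 on wild-type 1 to 5 and at 0.15, 0.26, 1.14 and 1.37 on knockout 1 to 4, with the same arrays low. The wild-type means were 1.46 ± 0.38 (SD, n = 5) for Fcrls and 1.30 ± 0.32 (SD, n = 5) for Gpr34 (adjusted p = 0.00133 and adjusted p = 0.00213 by limma). P2ry13, an ADP receptor, was positive on all 9 arrays, at a wild-type mean of 0.71 ± 0.19 (SD, n = 5) and a knockout mean of 0.57 ± 0.26 (SD, n = 4). With features averaged, it was the one gene of the 34 to pass in both genotypes (limma adjusted p = 0.00168 and 0.0225). The knockout call was lost without knockout 2, 3 or 4 (highest limma adjusted p = 0.0983). Taken singly, 1 of the 2 features of Aif1, of Fcgr1 and of Lyz2 also passed in both genotypes. In knockout these had limma adjusted p = 0.0403, 0.0415 and 0.0462, and the other feature of each did not pass there. Hpgds, the hematopoietic prostaglandin D synthase, ranged in wild-type from 0.28 on wild-type 1 to 1.97 on wild-type 5 and passed with adjusted p = 0.0483 by limma (mean 0.99 ± 0.73 (SD, n = 5), and 0.24 ± 0.78 (SD, n = 4) in knockout). Of the 9 fits with 1 array left out, the Hpgds call held only in those without knockout 1 or wild-type 1 (highest adjusted p = 0.137 by limma).

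P2ry12 and Tmem119, both widely used to tell microglia from other macrophages, were not called higher. P2ry12, the ADP receptor that guides microglial processes, stood at 0.63, 0.68, 0.22, -0.17 and 0.34 on wild-type 1 to 5 and at -0.20, -0.21, -0.17 and 0.36 on knockout 1 to 4. Only wild-type 4 was below 0 among the wild-type arrays and only knockout 4 above 0 among the knockouts, and the wild-type mean of 0.34 ± 0.34 (SD, n = 5) did not pass (adjusted p = 0.107 by limma). Tmem119, a transmembrane marker of microglia, was below 0 on all 9 arrays, at -0.15, -0.13, -0.44, -0.47 and -0.21 on wild-type 1 to 5 and at -0.40, -0.47, -0.15 and -0.27 on knockout 1 to 4. Its wild-type mean of -0.28 ± 0.17 (SD, n = 5) passed as lower (adjusted p = 0.0331 by limma), a call lost with replicate number as a block (adjusted p = 0.093 by limma) and without knockout 1, wild-type 3, 4 or 5 (highest adjusted p = 0.0977). Tmem119 is read by 1 feature here. The means of the remaining genes in the group did not pass. They were 0.25 ± 0.33 (SD, n = 5) and 0.20 ± 0.21 (SD, n = 4) for the secreted protein gene Olfml3, 0.23 ± 0.69 (SD, n = 5) and -0.093 ± 0.66 (SD, n = 4) for the lectin gene Siglech, -0.011 ± 0.31 (SD, n = 5) and -0.20 ± 0.38 (SD, n = 4) for the selectin ligand gene Selplg, and -0.24 ± 0.65 (SD, n = 5) and -0.036 ± 0.22 (SD, n = 4) for the fructose transporter gene Slc2a5, wild-type first in each pair. The 2 features of Olfml3 went opposite ways, with wild-type means of 0.93 and -0.42, so its mean stands for neither.

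All 5 genes grouped as Fc receptors and signalling partners passed as higher in wild-type, where 12.9% of all values did. The group includes Ly86, which is not an Fc receptor gene. Fcer1g, the gamma chain through which activating Fc receptors signal, stood at 0.97, 1.62, 0.79, 1.03 and 1.38 on wild-type 1 to 5 and at 0.23, 0.20, 1.15 and 0.93 on knockout 1 to 4. Knockout 3 and 4 lay within the wild-type range and knockout 1 and 2 below it. The means were 1.16 ± 0.33 (SD, n = 5) (adjusted p = 0.00195 by limma) and 0.63 ± 0.48 (SD, n = 4). Ly86, which encodes the MD-1 partner of a Toll-like receptor relative, had a wild-type mean of 0.74 ± 0.26 (SD, n = 5) and a knockout mean of 0.46 ± 0.51 (SD, n = 4). Fcgr3 and Fcgr1, activating receptors for IgG, had wild-type means of 0.76 ± 0.26 (SD, n = 5) and 0.46 ± 0.16 (SD, n = 5), and knockout means of 0.33 ± 0.63 (SD, n = 4) and 0.37 ± 0.34 (SD, n = 4). Their wild-type calls were lost in the fit blocked on replicate number (limma adjusted p = 0.0577 for Fcgr3 and 0.0562 for Fcgr1). They were also lost without wild-type 2 or 5 and, for Fcgr1, without wild-type 3 or 4 (highest limma adjusted p = 0.0718 and 0.0644). Fcgr2b, the inhibitory receptor, had 12 features, whose wild-type means ran from 0.53 to 0.85, and group means of 0.67 ± 0.42 (SD, n = 5) and 0.31 ± 0.57 (SD, n = 4). The Fcgr2b call was lost without any 1 of wild-type 2 to 5, knockout 2 or knockout 4 (highest limma adjusted p = 0.131). Fcgr2b and Fcgr3 are close paralogues, and how well the features tell them apart was not tested.

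Of the 9 pan-leukocyte and myeloid genes, 5 passed as higher in wild-type and 0 as lower, beside 12.9% and 12.1% of all values. Those called higher were Lyz2, Aif1, Cd53, Cd48 and Ctss. Lyz2, the lysozyme of myeloid cells, had the highest wild-type mean of the 34 genes, 1.96 ± 0.33 (SD, n = 5) (adjusted p = 0.00153 by limma). It stood at 1.68, 2.19, 1.55, 2.03 and 2.34 on wild-type 1 to 5 and at 0.037, 0.74, 2.21 and 1.49 on knockout 1 to 4, so that knockout 1 was level with the pool and knockout 3 with the wild-type arrays. Aif1, which encodes the microglial marker Iba1, stood at 0.98, 1.32, 1.15, 1.86 and 1.83 on wild-type 1 to 5 and at 0.0080, 0.36, 1.43 and 0.94 on knockout 1 to 4, in the same order of knockout arrays. The tetraspanin gene Cd53 had means of 1.01 ± 0.29 (SD, n = 5) and 0.45 ± 0.63 (SD, n = 4), and the SLAM-family gene Cd48 of 1.01 ± 0.49 (SD, n = 5) and 0.63 ± 0.45 (SD, n = 4). For the cathepsin gene Ctss the means were 0.89 ± 0.22 (SD, n = 5) and 0.44 ± 0.85 (SD, n = 4), and its wild-type call was lost in the blocked fit (limma adjusted p = 0.0521) and without any 1 of the wild-type arrays (highest 0.0815). The lysosomal gene Laptm5, with means of 0.83 ± 0.55 (SD, n = 5) and 0.27 ± 0.84 (SD, n = 4), did not pass. Neither did the glycoprotein gene Cd52, with means of 0.33 ± 0.44 (SD, n = 5) and 0.45 ± 0.56 (SD, n = 4).

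Ptprc, which encodes CD45 and was read by 13 features, stood at -0.32, 0.015, -0.41, 0.55 and 0.41 on wild-type 1 to 5 and at -0.62, -0.59, -0.28 and -0.14 on knockout 1 to 4. All 4 knockout values were below 0, wild-type values lay on both sides of it, and neither the wild-type mean of 0.050 ± 0.42 (SD, n = 5) nor the knockout mean of -0.41 ± 0.24 (SD, n = 4) passed. Single Ptprc features ran from -2.44 to 0.29 on knockout 3 and from -0.57 to 0.45 on knockout 4. The knockout mean was below the wild-type mean in all 13. Itgam, the CD11b integrin chain, stood at 0.38, 0.28, 0.91, -0.12 and 0.13 on wild-type 1 to 5 and at -0.56, -0.31, 0.31 and -0.10 on knockout 1 to 4, with the highest value on wild-type 3. Neither mean passed, at 0.31 ± 0.38 (SD, n = 5) and -0.16 ± 0.37 (SD, n = 4). Itgam lies on chromosome 7 next but one to Pycard, with Trim72 between them in the RefSeq order. Its 2 features did not agree from array to array. One was at 0.72, 0.38, 0.19, -0.59 and -0.23 on wild-type 1 to 5 and the other at 0.028, 0.19, 1.62, 0.35 and 0.49. Their knockout means were below their wild-type means by similar amounts (-0.45 and -0.51).

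Of the 4 border macrophage genes, 1 passed as higher and 1 as lower in wild-type, beside 12.9% and 12.1% of all values, so these counts do not set the group apart. Ms4a7, a membrane-spanning gene of these cells, passed as higher in wild-type with a mean of 1.19 ± 0.62 (SD, n = 5) (adjusted p = 0.0148 by limma) and was at 0.50 ± 0.72 (SD, n = 4) in knockout. The call was lost without wild-type 2 or 5 (highest limma adjusted p = 0.0532). Cd163, the hemoglobin scavenger receptor, was below 0 on all 9 arrays, at -0.70, -1.29, -0.96, -0.0080 and -0.24 on wild-type 1 to 5 and at -0.65, -0.57, -0.39 and -0.20 on knockout 1 to 4. Its wild-type mean of -0.64 ± 0.52 (SD, n = 5) passed as lower (adjusted p = 0.03 by limma), a call lost without wild-type 1, 2 or 3 (highest adjusted p = 0.0911). The mannose receptor gene Mrc1 stood at -0.045, 0.34, -0.37, 0.29 and 0.43 on wild-type 1 to 5 and at -0.24, -0.23, 0.0080 and 0.038 on knockout 1 to 4, and neither the mean of 0.13 ± 0.33 (SD, n = 5) nor that of -0.11 ± 0.15 (SD, n = 4) passed. The coagulation factor gene F13a1 was near 1 on wild-type 3 (0.96) and knockout 3 (0.91) and at or below 0.10 on every other array. Its means were 0.22 ± 0.42 (SD, n = 5) and -0.053 ± 0.65 (SD, n = 4), and neither passed.

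Of the growth factors, Il34 passed as lower than the pool in wild-type and Csf1 did not. Il34, the CSF1 receptor ligand made largely by neurons, stood at -0.65, -0.51, -0.35, -0.48 and -0.20 on wild-type 1 to 5 and at -0.25, -0.29, -0.17 and 0.028 on knockout 1 to 4. It was below 0 on every array but knockout 4, and the wild-type mean of -0.44 ± 0.17 (SD, n = 5) passed as lower (adjusted p = 0.00511 by limma) with any 1 array left out. Csf1, the other ligand, had 10 features and stood at -0.18, 0.13, -0.092, -0.16 and -0.019 on wild-type 1 to 5 and at -0.0049, -0.23, 0.38 and -0.030 on knockout 1 to 4, with knockout 3 the highest. Its means of -0.063 ± 0.13 (SD, n = 5) and 0.030 ± 0.26 (SD, n = 4) did not pass. Csf2ra, a receptor chain for GM-CSF, was at -0.18 ± 0.24 (SD, n = 5) and -0.068 ± 0.33 (SD, n = 4) and did not pass.

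In knockout SmoA1 cerebellum, 1 of the 34 genes passed as higher than the pool, P2ry13, and 0 as lower by limma, where 4.28% and 3.35% of all values did (7.63% in either direction). Without knockout 1, 2 of the 34 passed as higher, and the share of all values in that fit was not computed. At an unadjusted p under 0.05 there were 13 of the 34, beside 23.1% of all values. Both comparisons share the pool, and a call in wild-type without one in knockout does not show a difference, which is tested next.

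**Figure D2:**
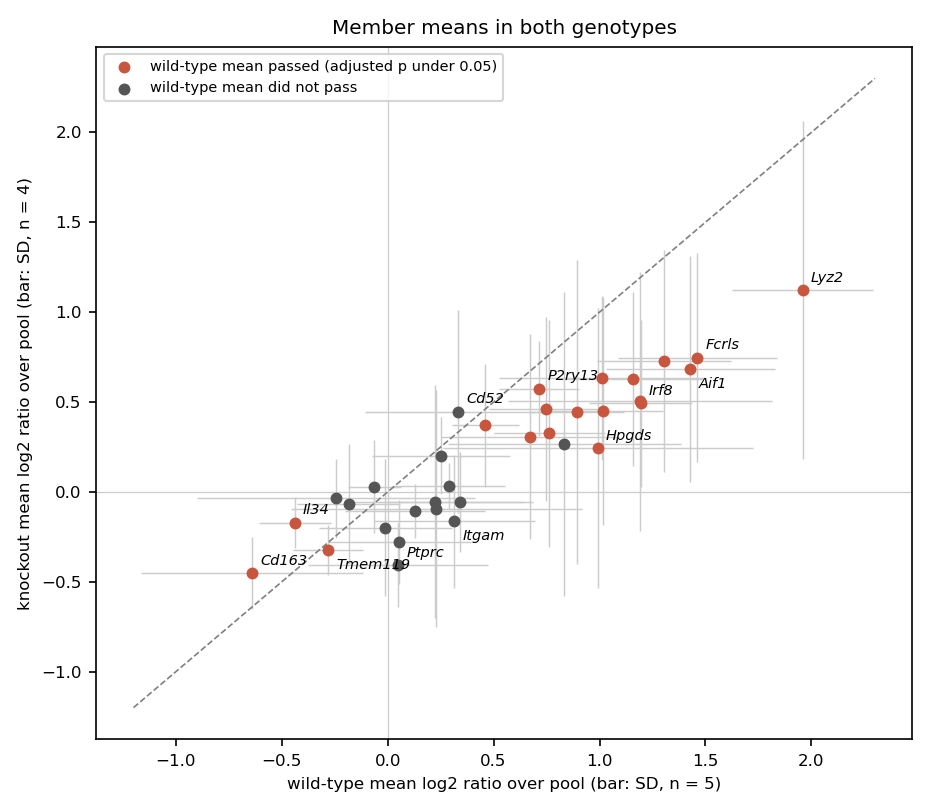
Knockout mean (vertical axis, SD over 4 arrays) against wild-type mean (horizontal axis, SD over 5 arrays) of the log2 ratio over the pool for the 34 genes, with the line of equal means dashed. The 19 genes whose wild-type mean passed are in red, and Lyz2 lies farthest to the right, at 1.96 and 1.12.

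Knockout was compared with wild-type to ask whether loss of ASC goes with another level of microglial and macrophage genes in this tumour-prone strain. None of the 34 genes differed past the threshold (0 by limma, 3 at an unadjusted p under 0.05), where 0.0163% of all values passed (0.00652% higher and 0.00979% lower) and 5.4% had an unadjusted p under 0.05. The difference was below 0 for 28 of the 34 and for 47.8% of all values. Its median was -0.35 on the log2 scale over the 34 genes and 0.0079 over all values. In no gene were the genotypes separated without overlap, as they were in 1.74% of all values (0.946% lower in knockout and 0.796% higher). Without knockout 1 the median over the 34 genes was -0.22, and it was -0.25 within the letter-titled and -0.31 within the number-titled arrays.

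**Figure D3:**
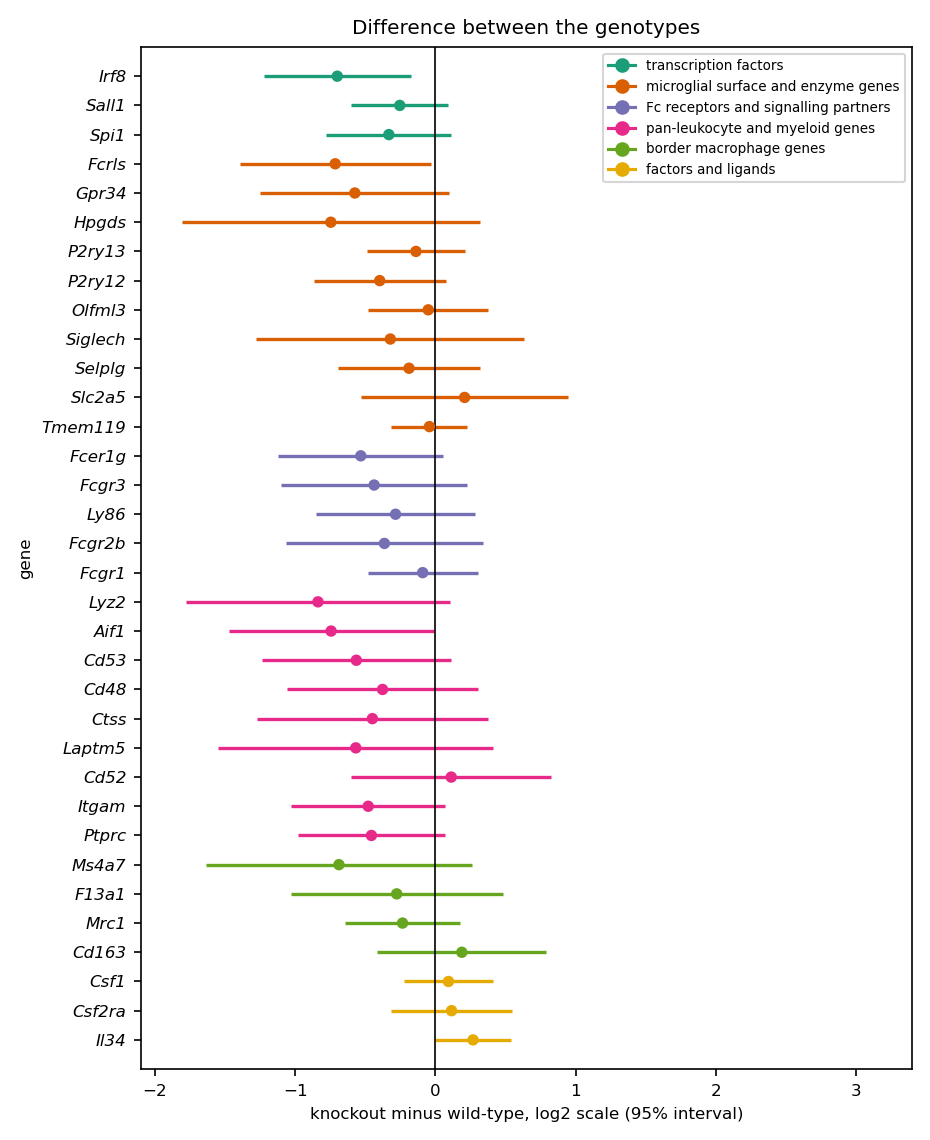
Difference of knockout minus wild-type means on the log2 scale for the 34 genes, coloured by role, with 95% intervals from limma. Points lie left of 0 for 28 genes, and the intervals of Irf8, Fcrls and Aif1 exclude 0 before adjustment.

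The genes with the smallest unadjusted p were Irf8, Fcrls, Aif1, Il34, Fcer1g and Lyz2. Irf8 differed by -0.70 (SE 0.229, 95% interval -1.22 to -0.18, limma adjusted p = 0.917), with an exact two-sided permutation p = 0.0318. Fcrls differed by -0.71 (SE 0.298, 95% interval -1.40 to -0.033, limma adjusted p = 0.917), with an exact two-sided permutation p = 0.0635, and 2 of the 4 knockout arrays were within its wild-type range. For Aif1 the difference was -0.74 (SE 0.320, 95% interval -1.48 to -0.014, limma adjusted p = 0.917), with both features lower in knockout. The lysozyme gene Lyz2 differed by -0.84 (SE 0.413, 95% interval -1.78 to 0.11, limma adjusted p = 0.919) and the gamma chain gene Fcer1g by -0.53 (SE 0.257, 95% interval -1.12 to 0.056, limma adjusted p = 0.917). Il34 went the other way, by 0.27 (SE 0.120, 95% interval -0.0053 to 0.54, limma adjusted p = 0.917), with an exact two-sided permutation p = 0.0476. The 126 divisions of 9 arrays allow no exact p below 0.00794, and these p-values are for single genes without adjustment. None of these 6 differences passed.

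By role, the median difference was -0.48 for pan-leukocyte and myeloid genes, -0.36 for Fc receptors and partners, -0.33 for the 3 transcription factors, -0.26 for border macrophage genes and -0.25 for surface and enzyme genes. It was 0.12 for Csf1, Il34 and Csf2ra, all 3 of which were above 0. The other genes with a difference above 0 were Slc2a5 (0.21), Cd163 (0.19) and Cd52 (0.11). Intervals were wide: that of Hpgds ran from -1.81 to 0.32 and that of Itgam from -1.03 to 0.071. The narrowest was that of Tmem119, -0.31 to 0.23.

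The knockout arrays did not lie together. The median over the 34 genes was 0.29, 0.68, 0.45, 0.67 and 0.87 on wild-type 1 to 5, and it was -0.071, -0.073, 0.83 and 0.43 on knockout 1 to 4. Knockout 1 and 2 thus lay at the level of the pool and below all wild-type arrays, knockout 3 above all wild-type arrays but wild-type 5, and knockout 4 among them. Below the whole wild-type range were 22 of the 34 genes on knockout 1, 26 on knockout 2, 1 on knockout 3 and 9 on knockout 4. Over all named genes the shares were 18.7%, 13.3%, 13.4% and 17.7%. Of the 34 genes, 17 had their lowest value of all arrays on knockout 1 and 8 on knockout 2, as did 13.4% and 4.17% of named genes.

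**Figure D4:**
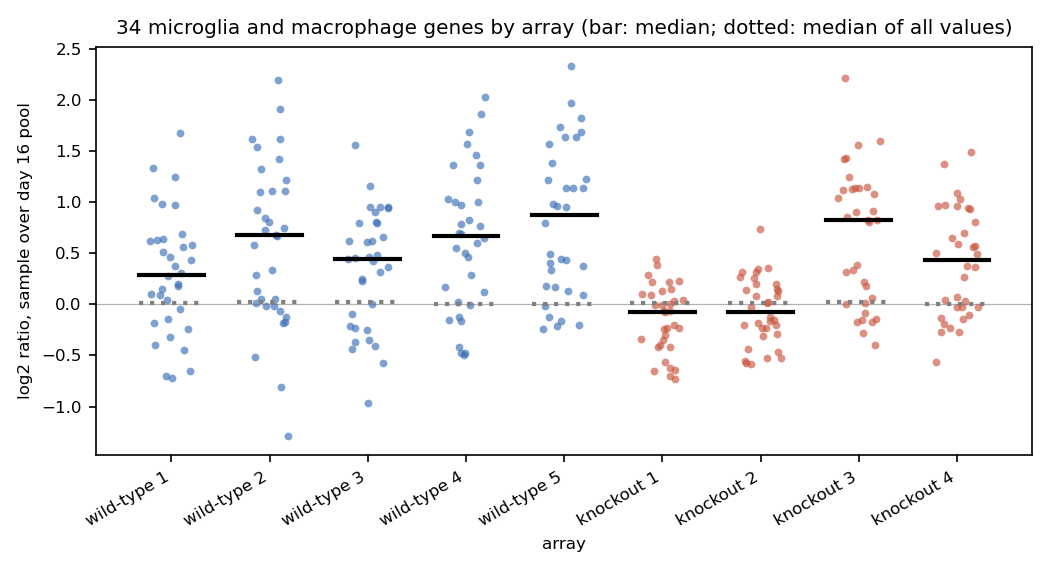
Log2 ratio over the day 16 pool of the 34 genes (points) on each array, wild-type in blue and knockout in red, with the median of the genes as a bar and the median of all 30654 values dotted. The bars of knockout 1 and 2 lie at -0.071 and -0.073 and that of knockout 3 at 0.83, with 1 wild-type bar above it, that of wild-type 5.

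Replicate numbers 1 to 4 occur in both genotypes. Between same-numbered arrays, 27 of the 34 genes were lower in knockout for number 1, 29 for number 2, 6 for number 3 and 23 for number 4. The median differences were -0.39, -0.60, 0.34 and -0.20, beside 0.0070, 0, -0.020 and 0 over all values. Number 3 thus went against the other numbers. Without both arrays of number 3 the median difference was -0.51, and 0 of the 34 genes passed by limma.

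Genes that work beside these, in signalling from the CSF1 receptor, from TREM2 and from leukocyte integrins, were laid out in the same way. Of 16 listed, 14 were measured. In wild-type 6 passed as higher and 0 as lower, beside 12.9% and 12.1% of all values. The 6 were Tyrobp, Itgb2, Trem2 (1.25), Rac2 (1.0), Dock2 (0.44) and Ncf1 (0.54), with wild-type means in parentheses. Itgb2, the CD18 chain that pairs with Itgam, stood at 0.81, 1.10, 0.79, 0.94 and 1.30 on wild-type 1 to 5 and at 0.079, 0.18, 0.70 and 0.53 on knockout 1 to 4. Its genotypes did not overlap, as in 1.74% of all values (0.946% lower in knockout). Itgb2 differed by -0.62 (SE 0.169) without passing (limma adjusted p = 0.917). Tyrobp, the adaptor of TREM2, had a wild-type mean of 1.40 and a knockout mean of 0.81, and its limma adjusted p in wild-type was 0.0028. No gene of this list passed in knockout over the pool or between the genotypes by limma. At an unadjusted p under 0.05 there were 4 and 2, beside 23.1% and 5.4% of all values. All 14 differences were below 0, with a median of -0.41.

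Factors of microglial differentiation were listed next, beside the same shares of all values (12.9% higher and 12.1% lower in wild-type). Of 13 measured among 14 listed, Runx1 (0.73) and the TGF-beta receptor gene Tgfbr1 (0.68) passed as higher in wild-type and Smad3, a transducer of TGF-beta signals in many cell types, as lower (-0.62, limma adjusted p = 0.00102). Smad3 was also lower in knockout (-0.50, limma adjusted p = 0.015). None differed between the genotypes by limma, and the median difference was -0.16. Of the 13, 1 had an unadjusted p under 0.05, beside 5.4% of all values.

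Markers of other cells were set beside these values, and their part in the results was not tested. Over all values 12.9% passed as higher and 12.1% as lower in wild-type. For neutrophils (11 measured) the array medians ran from -0.15 to 1.04 in wild-type and -0.15 to 0.34 in knockout. Of these, Retnlg (0.55) and Mpo (0.50) passed as higher and Mmp9 (-0.65) as lower in wild-type. Mmp9 was also lower in knockout (-0.46, limma adjusted p = 0.0114). Retnlg stood at 0.95, 0.55, 0.18, 0.64 and 0.45 on wild-type 1 to 5 and at -0.23, -0.16, -0.48 and -0.016 on knockout 1 to 4. Its genotypes did not overlap, as in 1.74% of all values (0.946% lower in knockout). Retnlg differed by -0.77 (SE 0.167) without passing (limma adjusted p = 0.917), and the median difference over the neutrophil list was -0.28. For monocytes (7 measured) they ran from -0.23 to 0.086 and -0.14 to 0.17, with Chil3 higher (1.22) and Ly6c2 lower (-0.54) in wild-type. Chil3 stood at 0.52, 0.0090, 2.00, 2.16 and 1.40 on wild-type 1 to 5 and at 0.17, -0.14, -0.52 and 0.56 on knockout 1 to 4. It differed by -1.2 (SE 0.475) without passing (limma adjusted p = 0.917), and the median difference over the monocyte list was -0.11. Medians of T and NK cells (9 measured) ran from -0.044 to 0.32 and -0.014 to 0.26, where Cd4 (0.30), which macrophages can also transcribe, passed in wild-type and Nkg7 (0.42) did not. B cell medians (6 measured) ran from -0.0050 to 0.38 and -0.0018 to 0.51, where Cd22 (0.49) passed in wild-type and Cd79b (0.55) did not. No marker of mast cells (6 measured; Tpsb2 0.20, Fcer1a 0.13) or red blood cells (3 measured; Slc4a1 0.38, Hba-a1 0.41) passed in wild-type by limma (0 in each list at an unadjusted p under 0.05). The median differences between the genotypes were -0.034 for T and NK cells, -0.031 for B cells, 0.11 for mast cells and -0.24 for red blood cells. No gene of these 6 lists passed between the genotypes by limma. At an unadjusted p under 0.05 there was 1 gene each of neutrophils (Retnlg), monocytes (Chil3) and B cells (Pax5). Over all values the share was 5.4%.

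Genes of granule neuron progenitors, whose division Hedgehog signals drive, also varied between the knockout arrays. Their array medians ran from 1.97 to 3.20 in wild-type and stood at 0.36, 1.41, 2.29 and 1.67 on knockout 1 to 4. Knockout 1 was lowest and knockout 3 highest of the 4. The microglial medians were also highest on knockout 3 among the 4, but level with the pool on both knockout 1 and 2. All 10 progenitor genes passed as higher in wild-type and 6 in knockout, beside 12.9% and 4.28% of all values. The smallest p were those of Barhl1 (1.67 in wild-type) and Top2a (3.64). Oligodendrocyte medians were -1.30 to -0.96 in wild-type and -0.47, -0.57, -0.997 and -0.63 on knockout 1 to 4. All 7 oligodendrocyte genes passed as lower in wild-type and 4 in knockout, beside 12.1% and 3.35% of all values. The smallest p were those of Mog (-1.21 in wild-type) and Mag (-1.51). Astrocyte and Bergmann glia medians were -0.65 to -0.23 in wild-type and -0.53 to -0.33 in knockout. In wild-type 4 of 8 passed as lower, led by Gdf10 (-1.97) and Aldh1l1 (-0.88), and 1 as higher. The shares of all values were 12.1% and 12.9%. Gdf10 (-1.16) and Aldh1l1 (-0.66) also passed as lower in knockout, beside 3.35% of all values. None of these markers passed between the genotypes by limma. At an unadjusted p under 0.05 there were 7 of the progenitor, 6 of the oligodendrocyte and 1 of the astrocyte genes. Over all values the share was 5.4%. The median difference was -1.13 for progenitor genes, with all 10 below 0. It was 0.42 for oligodendrocyte genes, with 6 of 7 above 0, and 0.035 for astrocyte genes. Over the 34 microglial and macrophage genes it was -0.35. Genotypes did not overlap in 2 progenitor genes, Top2a and Mycn (lower in knockout, 0.946% of all values). Nor did they in 2 oligodendrocyte genes, Mbp and Mag (higher, 0.796%). The part of these cells in the microglial values was not tested.

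**Figure D5:**
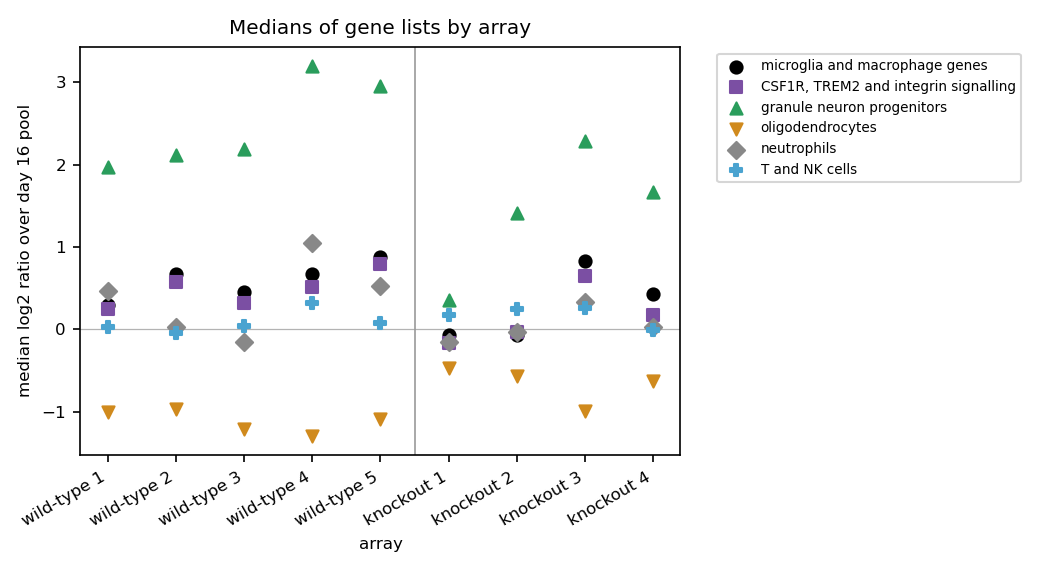
Median log2 ratio over the day 16 pool of 6 gene lists on each array, wild-type left of the line and knockout right of it. The granule neuron progenitor genes are lowest on knockout 1, at 0.36.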

How the data were processed

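RNA of SmoA1 cerebellum was measured on 9 Agilent arrays with 2 colours. The deposited values are the authors' log2 ratios of sample (Cy5) over the common pool (Cy3), 1 per feature, for 45220 features without a missing cell. The sources used here do not say how background and dyes were corrected. The log base was read from the values, some of which on every array exceed 4.82, the most a log10 ratio of scanner signals could be, and the direction from the dyes per the labels. No intensities came with the ratios, so dim or saturated spots were not separated, and the number of arrays limits precision. No array has the dyes exchanged.

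The platform annotation names 1 gene for 33653 features. Features of a gene were averaged (79 for the 34 genes, of which 18 have 1 feature), giving 30654 values. Both group means against the pool and their difference came from one limma 3.58.1 fit in R 4.3.3 without covariates. Tests were two-sided, with Benjamini-Hochberg adjustment over all values and a threshold of 0.05. The fit was tried on simulated data whose planted shifts were larger than any difference among the 34 genes. That trial does not cover differences of the size found here. Exact zeros, medians and scale were left as deposited.

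The 35 genes, the 11 other lists and the tests were chosen with earlier results of these data known. Every measured gene is named. Values of each array are given for a fixed set, for the 6 smallest p-values and for the 4 highest and 4 lowest means, and other lists give their counts and 2 genes of smallest p, with further genes in some. P2ry13 and features that disagree were picked out once their values were known. Same-numbered arrays of both genotypes deviated together, with correlations of 0.244, 0.247, 0.446 and 0.304, all over 0.1. Correlations between differently numbered arrays were not computed, so these do not show a pairing. The replicate number of the labels was taken as a possible pairing and tried as a block.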

Additional observations from a re-analysis of the deposited data

Results flagged for a closer look

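The values of each gene, and the median over the 34 genes, were searched for an array far from the rest of its group, by the gap to the nearest array over the group's whole range. Of 70 groups searched, 4 held such an array, where chance alone gives about 1 group in 20. F13a1 was at 0.96 on wild-type 3, with the next wild-type value at 0.10, and at 0.91 on knockout 3, with the next knockout value at -0.27. Csf2ra was at -0.57 on knockout 4, with the next at 0.058. P2ry12 was at 0.36 on knockout 4, with the next at -0.17.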

How the results depend on the processing

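Between the genotypes, 0 of the 34 genes passed in any of the 24 other settings, and the median difference stayed below 0, from -0.516 with array weights to -0.22 without knockout 1. With the replicate block it was -0.26. The count called higher in wild-type (16) was 13 with the replicate block, 8 in the letter-titled arrays and 9 with a log2 minimum of 1. The count called lower (3) was 1 after quantile normalization and 0 with the minimum of 1. It was also 1 with the features of lowest SD left out, which drops Il34, Tmem119 and P2ry13 from the test. The number-titled arrays hold 1 knockout array, and their counts are left out. Shares of all values passing were not computed for these and the following settings, so the counts cannot be set against them. In knockout the count called higher (1) was 2 with array weights, equal spread or quantile normalization and 4 by single features. It was 5 with title style as a block or adjusted p under 0.1. With the trended robust prior, the minimum of 1 or the letter-titled arrays alone it was 0. It was also 0 with the filter on SD, which leaves P2ry13, the gene called in the main fit, untested. The count called lower in knockout (0) was 6 with array weights and 1 with equal spread, quantile normalization or adjusted p under 0.1. The array weights were 1.86, 4.07, 0.60 and 0.53 on knockout 1 to 4. That fit thus leaned on knockout 1 and 2, where the median over the 34 genes was lowest, and it also gave the median difference of -0.516. With any 1 array, or both arrays of number 3, left out, the counts ran from 10 to 17 and 1 to 3 in wild-type and from 0 to 2 and 0 to 1 in knockout. Leaving out number 3 was chosen after seeing the data. The replicate block changed no call other than those given beside Tmem119, Fcgr3, Fcgr1 and Ctss among the wild-type calls.

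Of the single-gene differences recomputed, 722 kept and 20 changed their sign, and none of the latter passed in either setting. In the number-titled arrays alone (wild-type 4 and 5, knockout 4) these were Csf2ra (-0.23), Tmem119 (0.072), P2ry12 (0.28), Olfml3 (0.26), Slc2a5 (-0.57), Selplg (0.039), Cd52 (-0.39) and Cd163 (-0.071). Others were Fcgr1 in the letter-titled arrays (0.048), Csf1 with array weights (-0.12) and Olfml3 by its higher feature (0.18). With arrays left out, Cd52 ran from -0.15 to 0.28, Csf1 from -0.032 to 0.18, Fcgr1 from -0.24 to 0.0085, Olfml3 from -0.17 to 0.054 and Tmem119 from -0.14 to 0.0051. The cause was not tested. The number-titled fit assumes that its lone knockout array varies like its wild-type arrays. Signal over background is not given, so which of these genes were too dim to measure is unknown.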

Other observations

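Within wild-type, both number-titled arrays lay above all 3 letter-titled ones for 12 of the 34 genes and below them for 2, beside 21.3% and 16.6% of named genes. The genes above were Spi1, P2ry13, Siglech, Slc2a5, Hpgds, Fcgr2b, Ptprc, Cd48, Laptm5, Aif1, Cd163 and Ms4a7, and those below were Selplg and Itgam. Siglech, a microglial lectin gene, was at -0.40, -0.18 and -0.23 on the letter-titled wild-type 1 to 3 and at 0.97 and 0.98 on the number-titled wild-type 4 and 5, while in knockout it was at -0.73, -0.52 and 0.18 on the letter-titled arrays and 0.70 on the number-titled one. Slc2a5, the fructose transporter gene, was at -0.72, -0.81 and -0.57 on wild-type 1 to 3 and at 0.70 and 0.17 on wild-type 4 and 5, and knockout 4 was at -0.14. Cybb, the catalytic subunit of the phagocyte oxidase, was at 0.11, 0.19 and -0.064 and at 1.76 and 1.66 on the same wild-type arrays. Siglech, Slc2a5 and Cybb were picked for their values, and the differences between title styles were not tested. Exact zeros also went with title style. They made up 7.35%, 7.14% and 6.52% of features on wild-type 4, wild-type 5 and knockout 4, and from 1.07% to 3.49% on the letter-titled arrays.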
